A study of Mus musculus with 10 samples.

Results

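Metallothioneins and zinc transporters were followed in the femur of mice after 24 h of hindlimb unloading. The set held 10 genes, of the 19505 named genes that the arrays carry. It took in the metallothioneins Mt1, Mt2 and Mt3 and the zinc sensor Mtf1. With them were Slc30a1, Slc30a4 and Slc30a5, exporters from the cytosol, and Slc39a8, Slc39a13 and Slc39a14, importers into the cytosol. Gene probes were taken by gene name or by transcript accession, whatever their values, which gave 20 of the 41174 probes. Of these, 19 were bright enough to be tested, and every gene had at least 1 of them.

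The unloaded group was 5 male ICR mice aged 6 months, hung by the tail in a head-down tilt for 24 h so that the hind legs bore no weight. The control group was 5 male ICR mice of the same age that moved about freely. All 10 animals were housed singly, ICR is an outbred stock, and the labels name no mutation or drug in either group. Total RNA of the whole femur of each animal was labelled with Cy3 and put on 1 Agilent one-colour array, so n = 5 animals in each group throughout. Unloaded animals weighed 27.3 g ± 1.72 and control animals 28.6 g ± 1.78 (SD, n = 5 each; exact permutation p = 0.278, two-sided).

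Metallothioneins are small proteins, rich in cysteine, that bind zinc and copper and buffer their free levels in the cell. Their genes are switched on by zinc through Mtf1, a zinc-finger factor that enters the nucleus and binds metal response elements, and Mt1 and Mt2 also respond to glucocorticoids and to inflammatory cytokines. Members of the Slc30 (ZnT) family move zinc out of the cytosol, across the cell membrane or into vesicles, and members of the Slc39 (ZIP) family bring it in. In bone, zinc is a cofactor of alkaline phosphatase and of matrix metalloproteinases.

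Sequences that carry metal response elements are shown because these elements are how zinc reaches the metallothionein genes. RefSeq promoter windows on build GRCm38.p6 matched 9 of the 10 genes, with 10 windows in all, and the 250 bases before the listed start were searched on both strands for the core TGCACNC or TGCGCNC. No matches overlapped. In the lines below the core, or its reverse complement, is in capitals. The Mt2 line is the whole window, and the others give the core with 10 bases on each side.
Mt2, chr8:94172368-94172617, plus strand: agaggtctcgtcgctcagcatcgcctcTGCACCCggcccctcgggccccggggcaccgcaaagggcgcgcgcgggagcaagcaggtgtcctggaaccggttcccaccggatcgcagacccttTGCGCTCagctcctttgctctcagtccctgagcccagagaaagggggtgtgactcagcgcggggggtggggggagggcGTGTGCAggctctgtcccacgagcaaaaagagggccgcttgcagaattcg
Mt1, chr8:94179056-94179082, plus strand: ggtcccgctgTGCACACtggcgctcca
Slc30a1, chr1:191906728-191906754, plus strand: cgggggttccGAGTGCAaagcaaagtt
Slc30a4 distal, chr2:122702875-122702901, minus strand: cgggggctcaGAGCGCAcaagacctca
Slc30a4 proximal, chr2:122702739-122702765, minus strand: cgcgcctcgcGGGCGCAcgcgccgcct

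The Mt2 window held 3 cores, which 1.26% of all 32851 promoter windows of that length equalled or passed. Their first bases lay 223, 128 and 50 bases before the start. The Slc30a4 window held 2 cores, a number that 5.17% of all windows reached. The windows of Mt1, Slc30a1, Slc30a5 and 1 of the pair for Slc39a8 held 1 core each, while 21.4% of all windows held 1 or more, and those of Mt3, Mtf1 and Slc39a13 held none. Including the 50 bases after the start, Mt2 had 4 cores, a number that 0.517% of all windows reached, and Mt1 and Slc30a4 had 3 each (1.97%). Slc30a1 then had 2 (7.11%), and Mt3, Slc30a5, Slc39a13 and 1 Slc39a8 window had 1 each (25.7% of all windows had 1 or more). Listed starts are not always the outer end of a gene's RefSeq interval. Of the 250 bases, 206 lay inside that interval for Mt1, 126 for Slc39a13, 84 for Slc30a1 and 53 for Slc30a5, and both Slc39a8 windows lay wholly inside it. The counts of these genes therefore depend on which start is used. A match of letters is no evidence of binding, and its absence from a window says nothing about the factor.

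**Figure D1:**
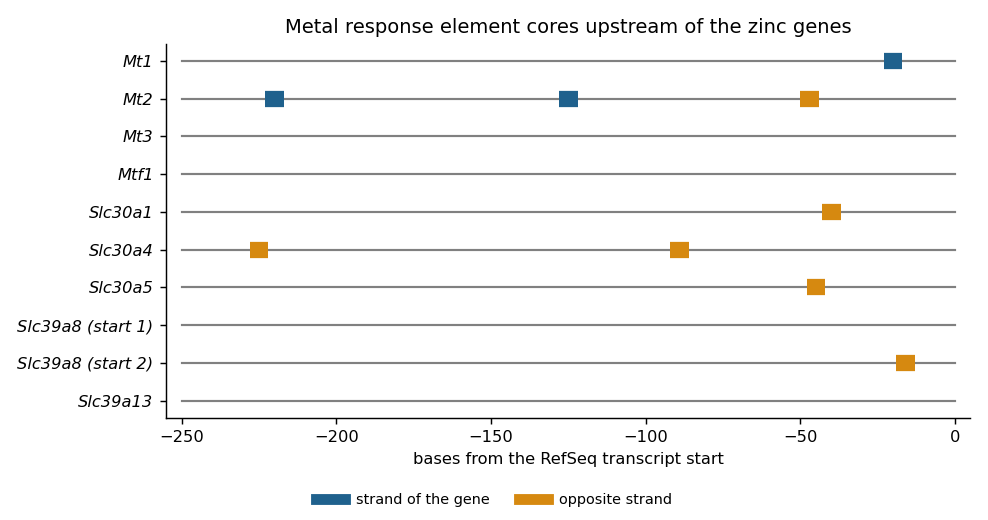
Positions of metal response element cores in the 250 bases before the listed start of each promoter window, with distance from the start in bases on the horizontal axis, 1 line per window, blue boxes on the strand of the gene and orange boxes on the opposite strand. Mt2 carries 3 cores and Slc30a4 carries 2, while Mt3, Mtf1 and Slc39a13 carry none.

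All levels below are log2 of the spot intensity relative to the 75th percentile of the same array, so 0 is the brightness at that percentile. Levels of different probes cannot be set against each other, because probes differ in how well they bind. A difference is the unloaded mean minus the control mean on that scale, and a probe was called at a limma p below 0.05 after Benjamini-Hochberg adjustment over all 38629 tested probes. Only 1 probe was called over the whole array, that of Ddit4, a stress-induced inhibitor of mTOR signalling, which is 0.00259% of those tested. At an unadjusted p below 0.05 the arrays gave 16.1% of probes, 10.2% higher and 5.92% lower, and the groups did not overlap for 3.16%, 1.51% higher and 1.65% lower.

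None of the 19 tested probes of the zinc genes was called, against the 0.00259% given. Positive differences were found for 10 and negative ones for 9, from -0.19 (Mt3) to 0.31 (Mt2), with adjusted p between 0.283 and 0.932. The Mt2 probe was the only one of the 19 at an unadjusted p below 0.05 (higher, where 10.2% of all probes were higher and 5.92% lower), and the 1 probe whose groups did not overlap belonged to Slc30a5 and was lower (3.16% of all probes). With 1 probe of 19 each, neither count is a result about the zinc genes as a set. With the brightest probe standing for each gene, 4 genes had a positive and 6 a negative difference, and their median was -0.07. Over all 18955 genes tested, 60.4% had a positive difference and the median was 0.05, but with median scaling the median of all genes was -0.04, so neither set of signs gives a direction free of the scaling. In whole bone, fewer cells of a type and less RNA per cell cannot be told apart, for any value given here.

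**Figure D2:**
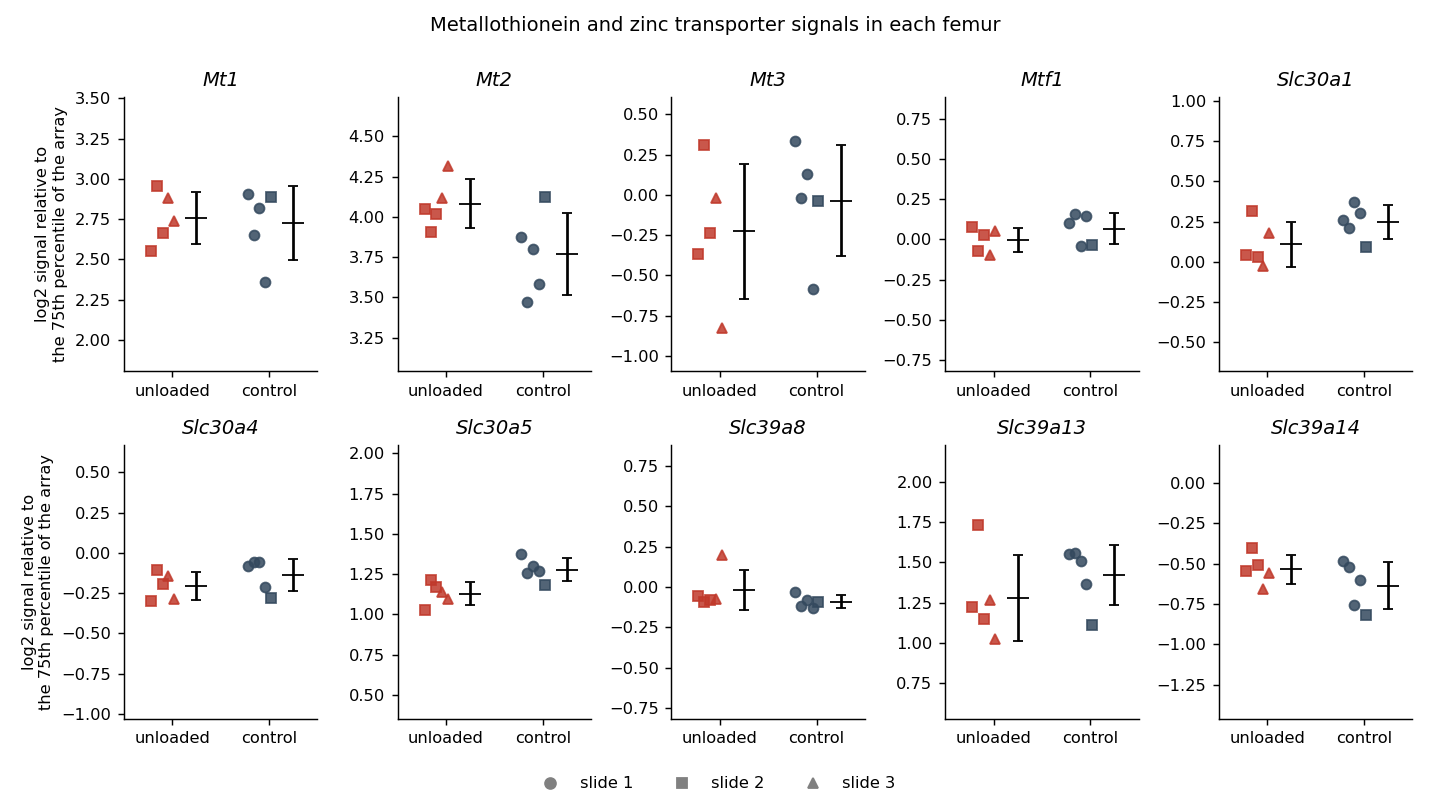
Level of each of the 10 genes by its brightest probe, as log2 intensity relative to the array's 75th percentile on the vertical axis, with unloaded animals left of control animals, 1 point per animal shaped by slide, and bars for the mean ± SD (n = 5 each). Unloaded Mt2 averages 4.08 against 3.77 in controls with overlapping points, and the groups overlap in every panel.

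Mt2 encodes a metallothionein made in nearly all tissues. Unloaded animals 1 to 5 had levels of 4.05, 3.91, 4.02, 4.12 and 4.31, against 3.87, 3.47, 3.80, 3.59 and 4.13 in controls 1 to 5. The unloaded animals lay close together in the upper part of the range, and 1 of them was above every control. Mt2 averaged 4.08 ± 0.15 in unloaded and 3.77 ± 0.26 in control femurs (SD, n = 5 each), a difference of 0.31 (SE 0.13, 95% interval 0.04 to 0.58), or 1.24-fold. The limma p was 0.0293 before and 0.283 after adjustment, so Mt2 was not called. Control 5, the highest control, lay 0.44 above the mean of the other controls, and it alone shared a slide with unloaded animals. On that slide the difference was -0.13, over 3 unloaded animals and this 1 control.

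Mt1 encodes the other widely made metallothionein and lies next to Mt2 on chromosome 8. Its brighter probe was spotted 10 times on each array, and the spots of an array differed by an SD of 0.07 to 0.10 on the log2 scale. Levels were 2.55, 2.95, 2.67, 2.88 and 2.74 in unloaded animals, against 2.91, 2.65, 2.82, 2.36 and 2.89 in controls. The groups lay over each other, and control 4 was the lowest animal of all. The means were 2.76 ± 0.16 and 2.73 ± 0.23 in unloaded and control femurs, and the difference was 0.03 (SE 0.12, 95% interval -0.23 to 0.30, adjusted p = 0.896). Equal levels were not shown, since the interval allows a difference of either sign. A dim second probe of Mt1 averaged -1.89 ± 0.17 in unloaded and -2.17 ± 0.29 in control femurs (difference 0.28, SE 0.14, adjusted p = 0.328). Mt1 and Mt2 have closely similar coding sequences, and how far each probe binds the other gene's RNA was not tested.

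Mt3 encodes a metallothionein best known from brain, where it was named growth inhibitory factor. Its levels were -0.37, 0.31, -0.24, -0.02 and -0.82 in unloaded animals, against 0.34, -0.02, 0.13, -0.58 and -0.04 in controls. The animals of each group were widely spread and overlapped throughout, and unloaded animal 5 was the lowest. The difference was -0.19 (SE 0.20, 95% interval -0.62 to 0.24, adjusted p = 0.611), less than the SD of either group (0.42 in unloaded and 0.34 in control femurs). Without unloaded animal 5 it was -0.04 and without control 1 it was -0.10, while it was -0.33 without unloaded animal 2 or without control 4.

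Mtf1, the zinc sensor itself, had levels of 0.07, -0.07, 0.03, -0.09 and 0.05 in unloaded animals, against 0.10, 0.16, -0.04, 0.14 and -0.04 in controls. The points overlapped, and both groups spanned a narrow range. The difference was -0.07 (SE 0.09, 95% interval -0.26 to 0.12, adjusted p = 0.679). A second probe had the opposite sign, at 0.11 (SE 0.10, adjusted p = 0.542), and the remaining one was not well above background on any array.

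Slc30a1 encodes ZnT1, the exporter of the cell membrane and a classical Mtf1 target. Its brighter probe read 0.04, 0.32, 0.03, -0.02 and 0.18 in unloaded animals, against 0.26, 0.21, 0.37, 0.31 and 0.09 in controls. In 3 unloaded animals the level lay below every control and the others lay among them. The difference was -0.14 (SE 0.10, 95% interval -0.35 to 0.07, adjusted p = 0.454), while the other probe of the gene gave 0.02 (SE 0.09, adjusted p = 0.932).

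Slc30a4 encodes ZnT4, which loads zinc into vesicles. Levels were -0.30, -0.11, -0.19, -0.14 and -0.29 in unloaded animals, against -0.08, -0.06, -0.06, -0.21 and -0.28 in controls. All unloaded values were below 3 of the controls, and the 2 lowest controls were among them. The difference was -0.07 (SE 0.09, 95% interval -0.26 to 0.12, adjusted p = 0.689).

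Slc30a5 encodes ZnT5, which supplies zinc to the early secretory pathway, where enzymes such as alkaline phosphatase take it up. Its brightest probe read 1.03, 1.22, 1.17, 1.14 and 1.09 in unloaded animals, against 1.38, 1.25, 1.30, 1.27 and 1.18 in controls, and 4 unloaded animals lay below every control. The difference was -0.15 (SE 0.08, 95% interval -0.33 to 0.03, adjusted p = 0.373). A second probe read 0.41, 0.55, 0.52, 0.44 and 0.39 in unloaded animals, against 0.62, 0.68, 0.70, 0.60 and 0.58 in controls. Here all 5 unloaded animals lay below all controls, as they did for 1.65% of all tested probes, and the difference was -0.17 (SE 0.08, adjusted p = 0.318). The dimmest probe gave 0.07 (SE 0.10, adjusted p = 0.734), so the 3 probes did not share a sign. Within the slide that held both groups, the difference of the brightest probe was -0.04.

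Slc39a8 encodes ZIP8, an importer that takes up zinc as well as manganese and that inflammatory signals induce. Levels of its brightest probe were -0.06, -0.09, -0.08, -0.07 and 0.20 in unloaded animals, against -0.03, -0.12, -0.08, -0.13 and -0.09 in controls. All animals but unloaded animal 5 lay within a narrow band. The difference was 0.07 (SE 0.09, 95% interval -0.12 to 0.26, adjusted p = 0.674). Both other probes had the same sign, at 0.21 (SE 0.12, adjusted p = 0.361) and 0.22 (SE 0.11, adjusted p = 0.329), with 3 unloaded animals above every control on each.

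Slc39a13 encodes ZIP13, a zinc transporter of the Slc39 family whose loss in humans gives a connective tissue disorder with skeletal changes. Levels were 1.22, 1.73, 1.15, 1.26 and 1.03 in unloaded animals, against 1.55, 1.56, 1.51, 1.37 and 1.11 in controls. Unloaded animal 2 was the highest of all 10 and the remaining unloaded animals lay below controls 1 to 4. The difference was -0.14 (SE 0.14, 95% interval -0.43 to 0.15, adjusted p = 0.578), and -0.03 (SE 0.11) for the other probe. Single animals moved it: it was -0.26 without unloaded animal 2, -0.08 without unloaded animal 5 and -0.22 without control 5, with no call in any of these.

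Slc39a14 encodes ZIP14, an importer of zinc, iron and manganese that interleukin-6 induces in liver. Levels were -0.55, -0.41, -0.51, -0.66 and -0.55 in unloaded animals, against -0.48, -0.52, -0.76, -0.60 and -0.82 in controls. The groups overlapped, with control 5 the lowest. The difference was 0.10 (SE 0.10, 95% interval -0.10 to 0.31, adjusted p = 0.565). A dim probe, well above background on 4 of the 5 unloaded arrays, had the opposite sign at -0.17 (SE 0.22, adjusted p = 0.686).

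**Figure D3:**
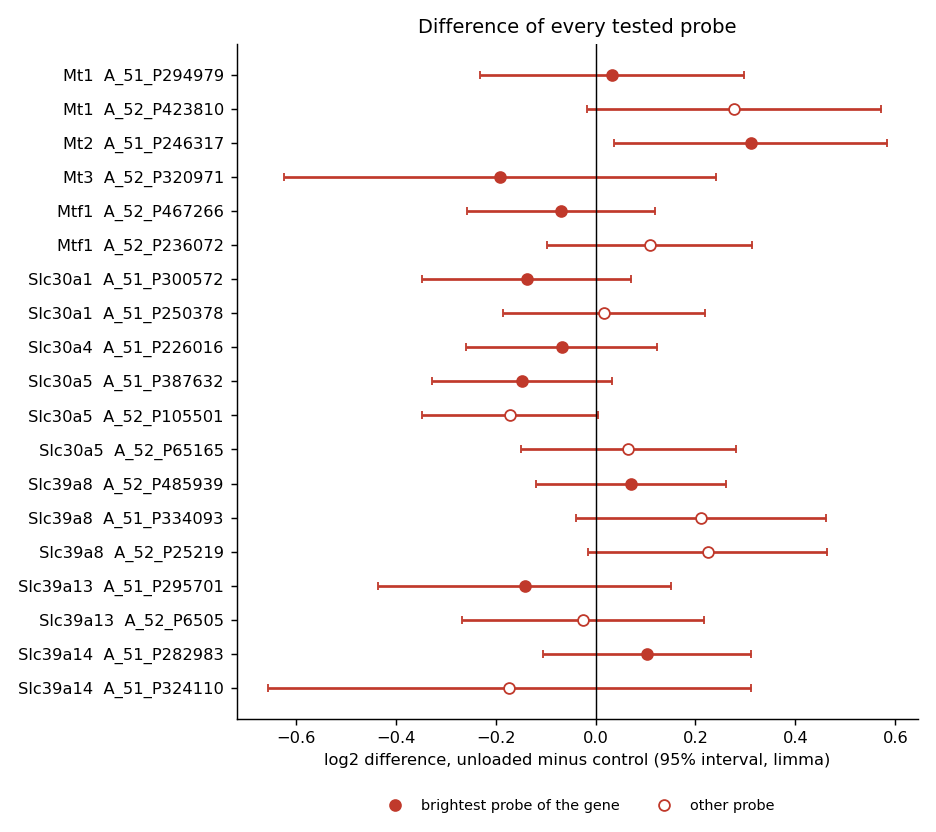
Difference, unloaded minus control, of each of the 19 tested probes on the log2 scale (horizontal axis, filled points for the brightest probe of a gene and open points for others) with its 95% interval (bars). With the scaling used for the levels shown, the Mt2 interval, 0.04 to 0.58, is the only one that leaves out 0, before adjustment over all probes. With median scaling the Mt2 interval takes in 0 (-0.04 to 0.47), while that of the brightest Slc30a5 probe leaves it out (-0.44 to -0.04).

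Probes of 1 gene did not always point the same way. Of the 7 genes with several tested probes, Mtf1, Slc30a1, Slc30a5 and Slc39a14 had probes of both signs, while those of Mt1, Slc39a8 and Slc39a13 shared one. Over all 19 tested probes, the 95% intervals ran from -0.66 at the lowest to 0.58 at the highest.

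Slide largely followed group. Slide 1 held 4 controls, slide 3 held 2 unloaded animals, and slide 2 held 3 unloaded animals with control 5, so slide and group could be told apart only through slide 2. There the difference kept its sign for Mt3 (-0.06), Slc30a5 (-0.04), Slc39a8 (0.02) and Slc39a14 (0.33). It turned for Mt1 (-0.16), Mt2 (-0.13), Mtf1 (0.05), Slc30a1 (0.04), Slc30a4 (0.08) and Slc39a13 (0.25). Control 5 differed from the other controls by -0.38 for Slc39a13, -0.23 for Slc39a14, -0.20 for Slc30a1 and 0.21 for Mt1. The part of slide in these differences was not tested beyond these values.

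**Figure D4:**
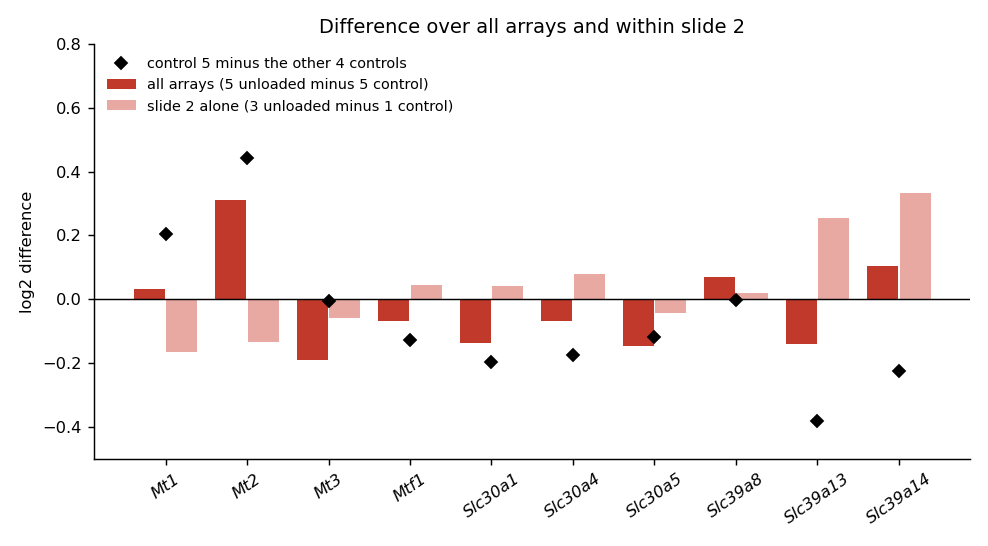
Difference of each gene on the log2 scale (vertical axis), over all 10 arrays (dark bars) and on slide 2 alone (light bars), where 3 unloaded animals stand against 1 control, with diamonds for control 5 minus the other 4 controls. For Mt2 the values are 0.31 over all arrays and -0.13 on slide 2, and for Slc39a14 they are 0.10 and 0.33.

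A total of 6 pairs of members were compared across the 10 animals after the group means were taken out. Mt1 and Mtf1 varied in opposite directions, with Pearson r = -0.73 and Spearman rho = -0.61 (permutation p = 0.0301 for r and 0.0807 for rho, 0.180 and 0.445 after adjustment over the 6 pairs), and r = -0.69 without the 2 animals farthest from the Mt1 median. The pair did not pass the adjustment. Mt1 and Mt2 had r = 0.44 and rho = 0.45 (permutation p = 0.285 for r, adjusted 0.569), and r = 0.32 without the 2 farthest animals. Mt2 and Slc39a14 had r = -0.62 and rho = -0.56 (permutation p = 0.112, adjusted 0.337), which came to -0.27 without the 2 farthest. The remaining pairs, Mt1 with Slc30a1, Mt1 with Slc39a14 and Slc39a8 with Slc39a14, had r of 0.07, -0.12 and -0.04 and rho of 0.14, 0.05 and -0.16, with an adjusted permutation p of 0.882 each for r. Without the 2 farthest animals r was 0.22 for Mt1 with Slc30a1 and -0.10 for Mt1 with Slc39a14, but -0.71 for Slc39a8 with Slc39a14, so the value near 0 of that pair rests on unloaded animal 5 and control 1.

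The genes whose levels followed Mt1 and Mt2 most closely over the 10 animals, group means removed, are given as a description among 18898 genes. They share the arrays and their scaling with the metallothioneins. For Mt1 they were the ribosomal protein genes Rpl36 (r = 0.920), Rpl35 (r = 0.918) and Rps10 (r = 0.918), then 0610012G03Rik (r = 0.916) and Commd9 (r = 0.910). For Mt2 they were Gsdma, a gasdermin (r = 0.955), Anapc15, a subunit of the anaphase-promoting complex (r = 0.948), the receptor kinase gene Ror2 (r = 0.943), the deiodinase gene Dio1 (r = 0.940) and 4930431F10Rik (r = 0.933). The 5 genes nearest to Mt1 and the 5 nearest to Mt2 had no gene in common, and none of the 10 was called between the groups.

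Among the other zinc transporters and metallothioneins, 18 of 20 genes were tested and none was called, with 13 positive and 5 negative differences and a median of 0.07. At an unadjusted p below 0.05 there were 2 higher and 0 lower, against 9.90% and 5.87% of all genes. Slc39a4, which encodes ZIP4, the importer that takes up zinc from food in the gut, had levels of -0.52, -0.42, -0.03, -0.12 and 0.16 in unloaded animals, against -0.88, -0.62, -0.52, -0.68 and -0.35 in controls. The levels of 3 unloaded animals were above all controls, and the difference was 0.42 (SE 0.14, adjusted p = 0.252). Slc30a10, which encodes a manganese exporter, had a difference of 0.25 (SE 0.10, adjusted p = 0.277). Slc39a11 and Tmem163, a zinc importer and a zinc efflux protein, had 0.28 (SE 0.13, adjusted p = 0.315) and 0.22 (SE 0.10, adjusted p = 0.319). Slc30a3 and Slc30a8 were too dim to be tested.

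Reported targets of Mtf1 other than the metallothioneins and Slc30a1 were not called either. Differences were positive for 2 and negative for 3 of the 5 (median -0.05), counted without regard to whether Mtf1 raises or lowers the gene. At an unadjusted p below 0.05, 0 were higher and 1 lower, against 9.90% and 5.87% of all genes. Of the 5, 1 is a zinc transporter gene that was also counted in the list above. The lower gene was Gclc, the catalytic subunit of the enzyme that begins glutathione synthesis, at -0.40 (SE 0.17, adjusted p = 0.288). Gclc is counted again among the oxidative stress genes below. Unloaded animals ranged from 0.36 to 1.44 around a median of 1.12, against 1.27 to 1.52 around 1.40 in controls, with unloaded animal 5 the lowest. Selenow, a selenoprotein gene, had a difference of 0.42 (SE 0.21, adjusted p = 0.331) and Csrp1, which encodes a LIM-domain protein of smooth muscle, had -0.10 (SE 0.15, adjusted p = 0.723).

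Genes of copper and iron handling gave 0 calls among 20, with 8 positive and 12 negative differences, where 60.4% of all genes were positive. At an unadjusted p below 0.05, 0 were higher and 0 lower, against 9.90% and 5.87% of all genes. The smallest p belonged to Slc40a1, the iron exporter ferroportin (-0.22, SE 0.11, adjusted p = 0.342), Atp7a, a copper pump (-0.20, SE 0.11, adjusted p = 0.373), and Ftl1, the ferritin light chain (0.30, SE 0.18, adjusted p = 0.378). Oxidative stress genes gave 3 positive and 6 negative differences among 9 and no call, with 0 higher and 3 lower at an unadjusted p below 0.05 (against 9.90% and 5.87% of all genes) and a median of -0.18. Their regulator Nfe2l2 was at -0.28 (SE 0.10, adjusted p = 0.258), all 5 unloaded animals lying below all controls, as for 341 of the 18955 genes tested, and Gclm, the other subunit of the Gclc enzyme, was at -0.24 (SE 0.11, adjusted p = 0.306).

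For the hormonal and cytokine inputs to the metallothionein genes, lists of response genes were used, which also hold receptor and signalling genes. Neither the hormone nor cytokine protein was measured. Among glucocorticoid response genes, 7 of the 8 tested were on the positive side, with a median difference of 0.41. Of all genes, 60.4% were positive with the scaling used here. At an unadjusted p below 0.05, 5 of the 8 were higher and 1 lower, against 9.90% and 5.87% of all genes. The 1 on the negative side was the gene of the receptor itself. Ddit4 was called, with levels of 4.86, 4.32, 4.84, 4.80 and 4.82 in unloaded animals, against 3.57, 3.45, 3.82, 3.48 and 3.46 in controls (difference 1.17, SE 0.12, adjusted p = 0.00794). Leaving out single animals gave adjusted p between 0.000595 and 0.0493, all below the threshold. The call was lost with slide as a fixed block (difference 1.21, adjusted p = 0.267), a fit that rests on slide 2 with its 1 control, and with body weight as a covariate (1.17, adjusted p = 0.0511). The clock gene Per1 had 0.92 (adjusted p = 0.153) and Errfi1 had 0.61 (adjusted p = 0.218). This list was chosen with its direction in these animals known and is not independent evidence of it. Of 13 interleukin-6 and acute-phase genes, 9 had a positive and 4 a negative difference, and none was called. At an unadjusted p below 0.05, 2 were higher and 1 lower, against 9.90% and 5.87% of all genes. Counts this small are no result about the list. Il6 itself was dim, with levels of -2.76, -3.12, -2.76, -2.91 and -2.70 in unloaded animals, against -3.30, -3.24, -3.36, -3.17 and -3.24 in controls. All 5 unloaded animals were above all controls, as for 284 of the 18955 genes tested, at a difference of 0.41 (SE 0.10, adjusted p = 0.218). Its signalling partners gave 0.46 for Cebpb (SE 0.15, adjusted p = 0.245) and -0.31 for Stat3 (SE 0.12, adjusted p = 0.270).

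All 5 osteocyte markers, and all 4 osteoblast markers measured on every array, were well above background on all 10 arrays. So were all 5 neural, 5 adipocyte and 7 skeletal muscle markers, so being above background could not test the tissue label. Sums of the linear signal over a list, given as log2 relative to the 75th percentile, overlapped between the groups for each of 11 marker lists. The osteocyte sum ranged from 4.61 to 5.00 in unloaded and from 4.09 to 4.71 in control femurs, and the skeletal muscle sum from 7.01 to 8.07 in unloaded and from 6.84 to 8.06 in control femurs. Neural markers, from the tissue where Mt3 is best known, summed to 3.02 to 3.15 in unloaded and 2.96 to 3.26 in control femurs. Cartilage markers differed by 0.34 and osteocyte markers by 0.35 in mean, and muscle markers by -0.15. The part of cell makeup in the Mt2 difference was not tested. Arrays had between 89.8% and 95.5% of spots well above background, and the array of unloaded animal 5 correlated least with the rest (median r = 0.973, against 0.985 to 0.988 for the others).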

How the data were processed

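Per the file headers, the scanner software was Agilent Feature Extraction 9.1.3.1 (protocol GE1-v5_91_0806, design 014868), and the deposited scanner files give linear intensity, background-corrected and detrended within each array but not scaled between arrays. The deposited series matrix held the same intensity values rounded (ratio to the processed signal 0.995 to 1.005, column medians of 315, 269, 253, 311 and 291 for unloaded animals 1 to 5 and 335, 332, 303, 261 and 306 for controls 1 to 5), with no centring and, as a single colour, no direction. It served as an alternative.

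From the deposited intensity, log2 values were taken minus the array's 75th percentile, which lay between 637 and 903 intensity units. Spots of a probe were averaged after 97 marked outlier spots had been left out. Testing required a probe to be well above background on 4 or more of 5 arrays in either group, with 3 or more measured values in both. Unloaded minus control was fitted by lmFit and eBayes (limma 3.58.1, R 4.3.3), with two-sided p adjusted by Benjamini-Hochberg over all 38629 tested probes. Files were read with data.table, version 1.17.8. Of all gene probes, 22951 were named by accession through RefSeq (GRCm38.p6), 3109 by an older name, 6659 had a current name and 8455 kept the file's name. The brightest tested probe stood for a gene.

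Members and gene lists were chosen with earlier results of these data known. All 10 members are named, with up to 4 genes of the other zinc family and up to 3 of each other list by p, and the 5 genes nearest to Mt1 and to Mt2. Alternatives covered background correction, scaling, probe filter, series matrix, slide, replicate number, body weight, variance trend, choice of probe and each array left out. The list counts per setting, the values on slide 2, the distance between Mt2 and Mt1 and the longer promoter window were added after seeing the data.

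The procedure was tested on simulated data with known changes in 200 probes. It called 21% of them at a log2 change of 0.5 and 90.5% at 1, with 0 and 8 false calls. The simulated noise was independent between probes and arrays and had no slide effect. These rates therefore need not hold for these arrays, where slide largely followed group. The largest difference of a zinc gene, 0.31, is smaller than any change simulated. Precision is limited by having 5 arrays in each group. No protein sequences were used here.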

Additional observations from a re-analysis of the deposited data

Results flagged for a closer look

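Among 20 groups of 5 animals (10 genes in each of 2 conditions), 1 held an animal far from the others. For Slc39a8, unloaded animal 5 read 0.20 on the log2 scale, while the other unloaded animals lay between -0.09 and -0.06. Chance alone flags about 1 in 20 such groups. The array of this animal also correlated least with the other arrays (median r = 0.973). Without it the Slc39a8 difference was 0.02 in place of 0.07, and neither was called.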

How the results depend on the processing

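Over 22 alternatives for each gene, no probe of the 10 genes was called, and the lowest adjusted p of a gene's brightest probe was 0.149 (limma, Mt2 without unloaded animal 2). Mt3 (-0.33 to -0.04) and Slc30a5 (-0.24 to -0.04) kept their sign under all 22, and Mt2 kept it under all but slide as a fixed block. With slide as a fixed block, which rests on slide 2 only, the sign turned for Mt1 (-0.16), Mt2 (-0.13), Mtf1 (0.046), Slc30a1 (0.041), Slc30a4 (0.078) and Slc39a13 (0.25). Slide as a random block had a correlation of -0.03. This correlation was estimated from 3 slides, with control 5 alone on a slide apart from the other controls. It cannot show how much of a group difference comes from slide, because slide largely followed group. Median scaling moved the median of all genes by -0.10 and turned Mt1 (-0.062) and Slc39a8 (-0.025). With it the Mt2 interval took in 0 (-0.04 to 0.47), while that of Slc30a5 left out 0 (-0.44 to -0.04). The Mt2 interval also took in 0 with body weight as a covariate (-0.04 to 0.54). So it did without unloaded animal 4, unloaded animal 5, control 2 or control 4. It left out 0 without any other single animal, and with quantile normalization or normexp background correction. Averaging all tested probes of a gene turned Mtf1 (0.020) and Slc39a14 (-0.035). Leaving out single animals moved Mt1 between -0.058 and 0.084, negative without control 4 (-0.058) or unloaded animal 2 (-0.015), and Mt2 between 0.24 and 0.40. The correlation of Slc39a8 with Slc39a14 turned to 0.075 without unloaded animal 5. The count of probes called, 1 over all arrays, was 3 with slide as a fixed block, 0 with body weight as a covariate and between 1 and 2 without single animals (2 without control 2). The count of genes called in the other lists was 0 with slide as a fixed block and 0 with body weight. The lost call was that of Ddit4, whose difference was 1.21 (adjusted p = 0.267) and 1.17 (adjusted p = 0.0511) in these fits, so the 3 probes called with slide as a fixed block do not include it. The cause was not tested. Of the probes at an unadjusted p below 0.05, 3939 were higher and 2286 lower, but 1386 and 4474 with median scaling, 2095 and 2938 with quantile normalization, and 1364 and 1866 with normexp background correction.

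Animals with the same number did not pair: their deviations from the group means correlated at -0.05, 0.18, -0.11, -0.14 and 0.07, and no unloaded animal correlated best with the control of its own number. With a replicate block, 1 probe was called and the Mt2 difference was 0.31 (limma adjusted p = 0.253). A missing call does not show equal levels, since the intervals of the zinc genes' probes reach from -0.66 to 0.58 on the log2 scale.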

Other observations

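The distance between Mt2 and Mt1 within an array was compared after their values had been seen. It ranged from 0.95 to 1.58 on the log2 scale in unloaded animals, against 0.82 to 1.24 in controls, and 3 unloaded animals lay above every control. The mean was 1.32 ± 0.25 in unloaded and 1.05 ± 0.18 in control femurs (SD, n = 5 each), a difference of 0.28 with an exact permutation p of 0.103 (two-sided, 252 assignments, smallest possible p 0.00794). Without single animals the difference lay between 0.21 and 0.37. The exact permutation p was 0.0397 without unloaded animal 2 and between 0.0714 and 0.190 in the other 9 cases. This distance uses the brighter Mt1 probe, and the dim Mt1 probe differed by 0.28 between the groups, against 0.31 for Mt2. On slide 2, with 3 unloaded animals and 1 control, it was 0.03.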
